A study of Meleagris gallopavo with 18 samples.

Results

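The 6 long non-coding RNA (lncRNA) loci MSTRG.47677, MSTRG.18092, MSTRG.32272, MSTRG.1945, MSTRG.10847 and MSTRG.30166 of the turkey are described here, in the epididymis, the testis and the ductus deferens. They were chosen because they were high in the epididymis and low or without counts in the ductus deferens, so the difference between these tissues is given as a description, with no test. They are 6 of the 56037 genes counted, and 6 of the 25 lncRNA loci that the study lists as higher in the epididymis than in the ductus deferens. RNA came from 6 male turkeys (birds 2, 11, 12, 14, 15 and 16), and each bird gave 1 library of each of the 3 tissues, which makes 18. All birds were 38 weeks old, had had days of 14 h of light, with 10 h of darkness, since they were 26 weeks old, and received no treatment that differed between groups. The groups are therefore 3 tissues of the same birds, and each library is a piece of whole tissue with all its cell types. The libraries were made from polyadenylated RNA, so that RNA without a poly(A) tail was not measured.

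Long non-coding RNAs are transcribed and spliced like messenger RNAs but hold no long reading frame, and many of them are found in few tissues. In birds sperm leave the testis through the epididymis, a short organ made largely of efferent ducts, whose epithelium holds ciliated cells and cells that take up fluid and protein from the lumen. They then pass into the ductus deferens, a long muscular duct in which sperm are stored. No function is known for these 6 loci, and the files pair none of them with a gene symbol.

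Positions follow those that the study lists for the loci on its turkey genome build, named under the processing of the data. To count from 1, 1 was added to each listed start, a need inferred from the listed start of MSTRG.47677. MSTRG.18092 lies on chromosome 16 from 15108147 to 15567296, MSTRG.1945 on chromosome 1 from 42450849 to 42542368 and MSTRG.10847 on chromosome 10 from 17980882 to 18147805. MSTRG.32272, from 60524388 to 61165729, and MSTRG.30166, from 7213057 to 7216505, both lie on chromosome 3. MSTRG.47677 covers bases 1 to 1793 of an unplaced scaffold. A listed span can hold more than 1 gene, and the strand and the exons of the loci were not used here. The merged annotation gives the loci 23 numbered transcripts, of which 22 are on the study's lncRNA list: 7 of MSTRG.32272, 6 of MSTRG.1945, 5 of MSTRG.18092, 3 of MSTRG.10847 and 1 each of MSTRG.47677 and MSTRG.30166. The transcript off the list is MSTRG.18092.6. MSTRG.18092 also holds 670 counts, 0.356% of its total, that are on none of its numbered transcripts. In each of the 18 libraries they equal the sum of the counts of the Ensembl transcripts ENSMGAT00000011521 and ENSMGAT00000011524, and no other pair among the 670 candidate Ensembl transcripts gave these sums. The row of this locus therefore mixes listed lncRNA transcripts with annotated ones.

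The total number of counts per library was 64456026 to 118625345 in the epididymis, 81438457 to 100159106 in the testis and 64143451 to 100241426 in the ductus deferens. Levels are given in CPM, the counts of a gene scaled by the TMM-normalised size of its library, and 3 counts, taken here as the limit of the depth, came to at most 0.0676 CPM in any library. The epididymis of bird 12 stood apart. It had counts on 17596 genes, against 27459 to 34711 in the other epididymides, and its largest gene took 30.9% of its counts, against 5.31% to 6.87%. Of the 4 markers of absorptive epithelium, the 2 that could be matched to rows, LRP2 and HNF4A, summed to 314 CPM in it and to at most 781 CPM in the others, against 4.26 to 20.6 CPM in testes and 0.581 to 4.54 CPM in ductus deferentes. Rows were matched through the study's genes that differ between these tissues. The sums of these and the next markers are thus no independent check of the tissue labels. The 5 matched of 8 markers of multiciliated cells summed to 227 to 667 CPM in epididymides, with the epididymis of bird 12 highest, to 277 to 771 CPM in testes and to 9.92 to 25.8 CPM in ductus deferentes. DNAH5, which is in this sum, alone had 86.6 to 407 CPM in epididymides. RSPH9, also in this sum, belongs to a group of genes that the study ties to processes such as flagellated sperm motility. In testes the sum is thus not particular to multiciliated cells. The order of the birds in the sum is not that of most genes of the ciliary list described below. Among the 10 matched genes of that list, the epididymis of bird 12 was the lowest for 8. Markers of germ cells, smooth muscle, leukocytes and erythrocytes could not be matched to rows, so the testis and ductus deferens labels were not checked with them. In whole tissue, fewer cells of a type and less RNA per cell cannot be told apart.

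The loci fall into 3 groups by their counts in the testis: none (MSTRG.47677), counts in all 6 testes (MSTRG.18092, MSTRG.32272 and MSTRG.1945), and counts in some testes (MSTRG.10847 and MSTRG.30166). MSTRG.47677 had 101 to 301 counts in each epididymis and 0 counts in all 6 testes and all 6 ductus deferentes. Its level was 2.43 ± 0.387 CPM in the epididymis (SD, n = 6), with a lowest value of 1.96, a median of 2.38 and a highest value of 2.90 CPM. It varied least among the loci between birds, with a coefficient of variation of 15.9% against 32.1% to 57.1% for the other 5. This order rests on the epididymis of bird 12, which was low at the other 5. Without bird 12 the epididymal level was 2.46 ± 0.425 CPM for MSTRG.47677 and 97.9 ± 8.44 CPM for MSTRG.32272 (SD). Relative to its mean, MSTRG.32272 then varied less. Against the level that 3 counts reach in a single library, the epididymis was at least 55.5-fold above the testis and at least 42.1-fold above the ductus deferens. The epididymis of bird 12, at 2.27 CPM, lay within the range of the other birds for this locus.

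MSTRG.18092 had 97.1 to 525 CPM in the epididymis (median 330), 2.04 to 5.33 CPM in the testis (median 4.56) and 0.768 to 5.11 CPM in the ductus deferens (median 1.84). All epididymides lay above all testes and ductus deferentes, and the testes overlapped with the ductus deferentes. The mean was 329 ± 173 CPM in the epididymis, 4.30 ± 1.19 CPM in testes and 2.32 ± 1.63 CPM in ductus deferentes (SD, n = 6 each). The testis thus held 1.31% and the ductus deferens 0.707% of the epididymal mean. The ratio of means between epididymis and ductus deferens was 142, and it was 58.7 to 453 within single birds. MSTRG.18092 was the only one of the 6 loci with over 50 counts in every ductus deferens.

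MSTRG.32272 had 32.2 to 111 CPM in the epididymis (median 93.9), 0.555 to 7.60 CPM in the testis (median 5.34) and 0.145 to 0.514 CPM in the ductus deferens (median 0.346). Each tissue lay wholly above the next, although the lowest testis (bird 11, 38 counts) was close to the highest ductus deferens. The means were 87.0 ± 27.9 CPM in the epididymis, 5.02 ± 2.45 CPM in testes and 0.335 ± 0.146 CPM in ductus deferentes (SD, n = 6 each). The ductus deferens had 10 to 50 counts per library, above the limit of the depth in all 6 birds. The ratio of means between epididymis and ductus deferens was 259.7, with 94.3 to 704 within single birds.

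MSTRG.1945 had 4.57 to 21.3 CPM in the epididymis (median 16.5) and 0.365 to 8.87 CPM in the testis (median 1.55), and 0 to 3 counts in the ductus deferens, where 4 of 6 libraries were at 0. Epididymis and testis overlapped: the testes of birds 12 and 2 (8.87 and 4.80 CPM) were above the epididymis of bird 12 (4.57 CPM). The mean was 15.0 ± 6.51 CPM in the epididymis and 3.08 ± 3.22 CPM in the testis (SD, n = 6 each), so that the testis held 20.5% of the epididymal mean, and 12.7% without the testis of bird 12, where the testis mean was 1.92 CPM. Against the 3-count level the epididymis was at least 261-fold and the testis at least 53.3-fold higher than the ductus deferens, and without the testis of bird 12 the bound for the testis was 33.2-fold.

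The remaining loci were sparse. MSTRG.10847 had 0.428 to 1.46 CPM in the epididymis (19 to 141 counts, median 0.731 CPM) and 0 to 0.630 CPM in the testis (0 to 101 counts, median 0.0390 CPM). It had 0 counts in all ductus deferentes. In the testis 3 libraries were at the limit of the depth, and bird 12 held 101 of the 127 counts. MSTRG.30166 had 0 to 4.48 CPM in the epididymis (0 to 432 counts, median 3.08 CPM), 0 to 0.687 CPM in the testis (0 to 110 counts, median 0.297 CPM) and again 0 counts in all ductus deferentes. Its 0 in the epididymis was that of bird 12, and the other 5 epididymides lay between 2.03 and 4.48 CPM, above all testes. Against the 3-count level the epididymal means were at least 15.4-fold higher than the ductus deferens for MSTRG.10847 and at least 46.1-fold higher for MSTRG.30166.

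**Figure D1:**
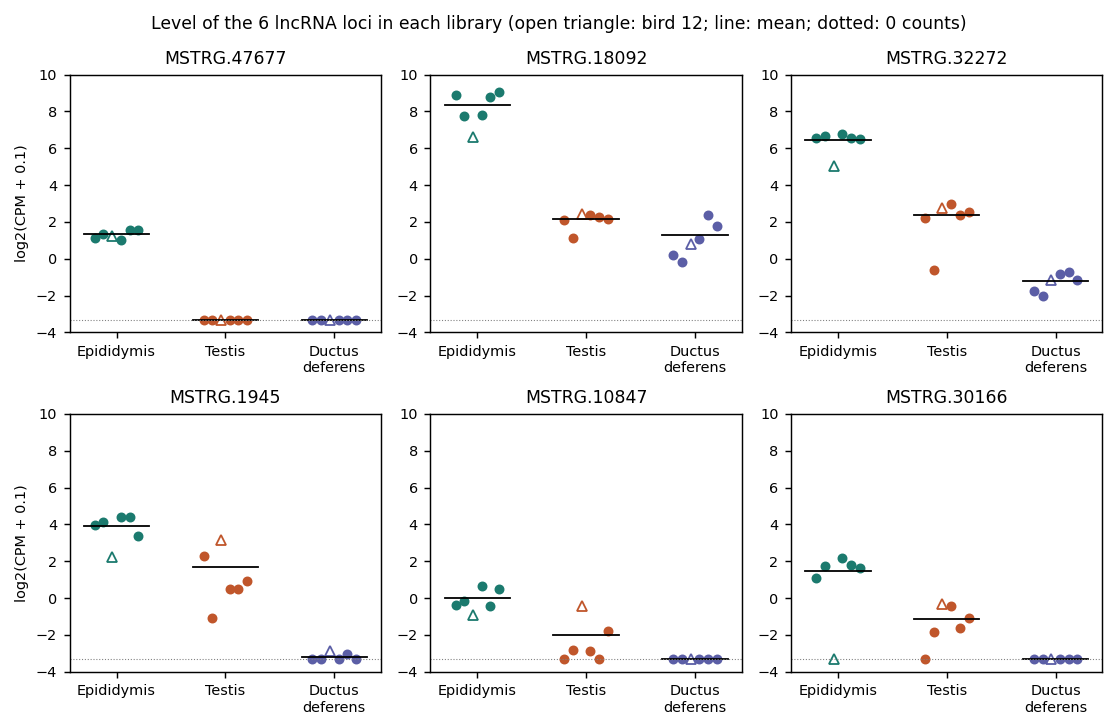
Level of each locus in every library as log2(CPM + 0.1), by tissue, with the mean as a line and bird 12 as an open triangle; points on the dotted line have 0 counts. MSTRG.47677 leaves the dotted line in the epididymis alone, whereas MSTRG.1945 has testes at 0.365 to 8.87 CPM that reach into the epididymal range of 4.57 to 21.3 CPM.

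In the comparison “epididymis/testis” the question was which of the loci are low in the testis as well. The rule that chose the loci used the epididymis libraries, sorted the loci by their testis counts and was set with all values known. The p-values of this comparison, for the loci and their transcripts, are therefore no independent evidence of a difference. MSTRG.47677 and MSTRG.10847 passed the filter on low counts through the epididymis alone, with 0 and 2 testes above its level, so no p is given for them. Among the other 4 loci edgeR called MSTRG.18092 and MSTRG.32272 higher in the epididymis, where a call needs an adjusted p below 0.01 together with a log2 fold change over 1, and so were 12.9% of the 28489 genes tested. MSTRG.18092 was higher by a log2 fold change of 6.18 ± 0.49 (SE; edgeR, adjusted p = 8.69e-07) and MSTRG.32272 by 4.03 ± 0.54 (edgeR, adjusted p = 5.28e-05). These loci and MSTRG.47677 had no overlap between the tissues, which 11.6% of all genes tested showed in this direction.

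MSTRG.1945 and MSTRG.30166 did not pass. Their log2 fold changes were 2.12 ± 0.71 for MSTRG.1945 (edgeR, adjusted p = 0.0220) and 2.84 ± 1.13 for MSTRG.30166 (edgeR, adjusted p = 0.0495). Both calls depended on bird 12. Without bird 12, where 16.1% of all genes were called higher, both loci were called, with log2 fold changes of 2.94 ± 0.60 for MSTRG.1945 (edgeR, adjusted p = 0.00124) and 3.36 ± 0.88 for MSTRG.30166 (edgeR, adjusted p = 0.00629). Without the epididymis of bird 12 alone, where again 16.1% of all genes were called higher, MSTRG.30166 was called (log2 fold change 3.08 ± 0.83; edgeR, adjusted p = 0.00590) and MSTRG.1945 was not (2.28 ± 0.68; edgeR, adjusted p = 0.0107). The log2 fold change of MSTRG.10847 was 2.404 ± 1.170, and 4.10 ± 1.13 without bird 12. The bird numbers of the testes of birds 12 and 14 are in doubt. The text of the study gives the largest number of expressed genes to the testis of bird 14, and in the deposited counts it is that of bird 12. Bird numbers follow the deposited labels here, and the ratios within birds, the fits with the bird as a block and those without bird 12 rest on them.

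Within single birds the ratio of epididymis to testis of MSTRG.18092 was 18.2 in bird 12 and 44.1 to 120 in the other birds. That of MSTRG.32272 was 4.81 in bird 12, 14.6 to 20.5 in birds 2, 14, 15 and 16, and 184 in bird 11, whose testis was the lowest. For MSTRG.1945 the testis was above the epididymis in bird 12, with a ratio of 0.515, and the ratio was 3.21 to 48.2 in the other birds. MSTRG.10847 likewise had a ratio of 0.679 in bird 12. The same library was the lowest or the highest at several loci, and at many other genes as well. The epididymis of bird 12 was the lowest epididymis for 5 of the 6 loci, all but MSTRG.47677, and 48.1% of genes with counts there showed the same. The testis of bird 12 was the highest testis for 4 of the 5 loci with testis counts, all but MSTRG.32272, against 21.3% of genes. The testis of bird 11 was the lowest for 3 of the 5 loci, against 26.2% of genes. Whether these numbers exceed the shares of all genes was not tested. The part of the low gene number of the epididymis of bird 12 in these values was not tested.

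**Figure D2:**
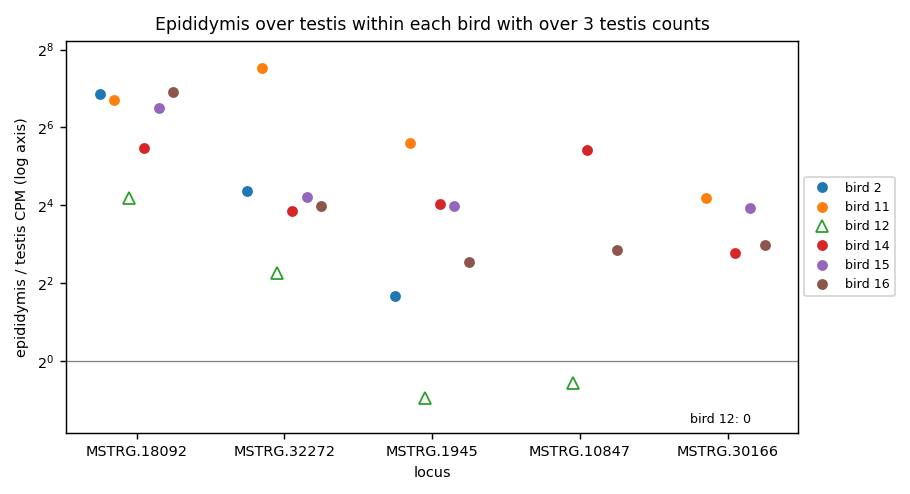
Ratio of epididymal to testicular CPM within each bird (log axis), for the 5 loci and the birds with over 3 counts in the testis; bird 12 is an open triangle, and its ratio for MSTRG.30166 is 0. Bird 12 has the lowest ratio at every locus shown, and at MSTRG.1945 (0.515) and MSTRG.10847 (0.679) it falls below 1.

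In the comparison “testis/ductus deferens” the question was whether counts in the testis exceed those of the ductus deferens. The ductus deferens libraries were used to choose the loci, so the values are a description with no test. MSTRG.32272 and MSTRG.1945 were higher in the testis in 6 of 6 birds, and all their testes lay above all ductus deferentes, as at 29.5% of the 27550 genes tested. The fitted log2 fold change of MSTRG.32272 was 3.98 ± 0.62, and MSTRG.1945 has the bound given above. MSTRG.18092 had a log2 fold change of 0.98 ± 0.49 and a higher value in the testis in 5 of 6 birds. MSTRG.47677, MSTRG.10847 and MSTRG.30166 did not pass the filter in this pair of tissues. For MSTRG.30166, 5 of 6 testes and no ductus deferens had counts, and for MSTRG.10847 4 of 6 testes did.

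Most of the counts of a locus lay on 1 or 2 of its transcripts, but which one led differed between birds for the larger loci. MSTRG.47677.1 and MSTRG.30166.1 are the only transcripts of their loci and hold all counts. MSTRG.1945.3 held 90.3% of the epididymal and 85.1% of the testicular counts of MSTRG.1945, and all 5 counts in the ductus deferens. It held 88.4% to 95.0% in each epididymis but that of bird 12, where MSTRG.1945.4 held 62.6% of 203 counts and MSTRG.1945.3 held 37.4%. In the testes MSTRG.1945.3 held 78.3% to 93.5%. MSTRG.10847.1 held 87.0% of the epididymal counts of its locus and all of the testicular ones, with MSTRG.10847.2 at 47.1% in the epididymis of bird 15.

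For MSTRG.18092 the leading transcript was MSTRG.18092.4, with 55.7% of the epididymal, 51.5% of the testicular and 61.6% of the deferential counts. It led in the epididymides of birds 2, 14 and 16 with 75.003% to 84.8%. In the epididymides of birds 11 and 15 MSTRG.18092.2 led instead, with 69.4% and 64.2%, and MSTRG.18092.4 held 13.6% and 15.1%. In the epididymis of bird 12 MSTRG.18092.3 led with 72.3%. The testes were as mixed: MSTRG.18092.4 led in 3 of them with 47.7% to 86.0%, MSTRG.18092.6 in bird 2 with 71.0%, MSTRG.18092.1 in bird 14 with 69.6% and ENSMGAT00000011521 in bird 11 with 41.4% of 140 counts. MSTRG.18092.6 was the one transcript of this locus with more counts in the testis than in the epididymis, 471 against 22 over 6 libraries each, besides ENSMGAT00000011521 with 99 against 70 counts.

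MSTRG.32272.1 led its locus with 52.6% of the epididymal and 98.2% of the deferential counts. In the epididymis of bird 14, however, MSTRG.32272.2 held 95.0% of the counts (10141), while it had at most 140 counts in any other library. In the testis MSTRG.32272.3 held 45.6% and MSTRG.32272.1 43.1% of the summed counts, and each led in 3 testes. The testis of bird 12, where MSTRG.32272.3 held 81.3%, gave 872 of its 1609 counts, and without this library MSTRG.32272.3 held 30.01% and MSTRG.32272.1 54.9%. MSTRG.32272.4 and MSTRG.32272.5 had counts in testes alone, 146 and 152 in all, from 2 and 3 libraries. MSTRG.32272.7 had 3381 counts in 4 epididymides and 0 in all testes and ductus deferentes.

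Only 3 loci had several transcripts and at least 20 counts in 3 or more libraries of each tissue. At these the share of the leading transcript was compared between epididymis and testis. For MSTRG.18092.4 it was 49.4 ± 34.6% in the epididymis and 47.4 ± 26.4% in the testis (SD, n = 6 each; exact permutation test, two-sided, p = 0.918). For MSTRG.32272.1 it was 58.8 ± 30.5% in the epididymis and 50.5 ± 26.7% in the testis (SD, n = 6 each; exact permutation test, two-sided, p = 0.615). For MSTRG.1945.3 it was 82.7 ± 22.3% in the epididymis and 86.6 ± 5.93% in the testis (SD, n = 6 each; exact permutation test, two-sided, p = 0.955). The adjusted p was 0.955 for all 3. No shift of the leading transcript was thus detectable over a spread between birds of up to 34.6 percentage points. At MSTRG.1945.3 the sign rests on the epididymis of bird 12: without it the share was 5.08 percentage points higher in the epididymis (exact permutation test, adjusted p = 0.286).

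**Figure D3:**
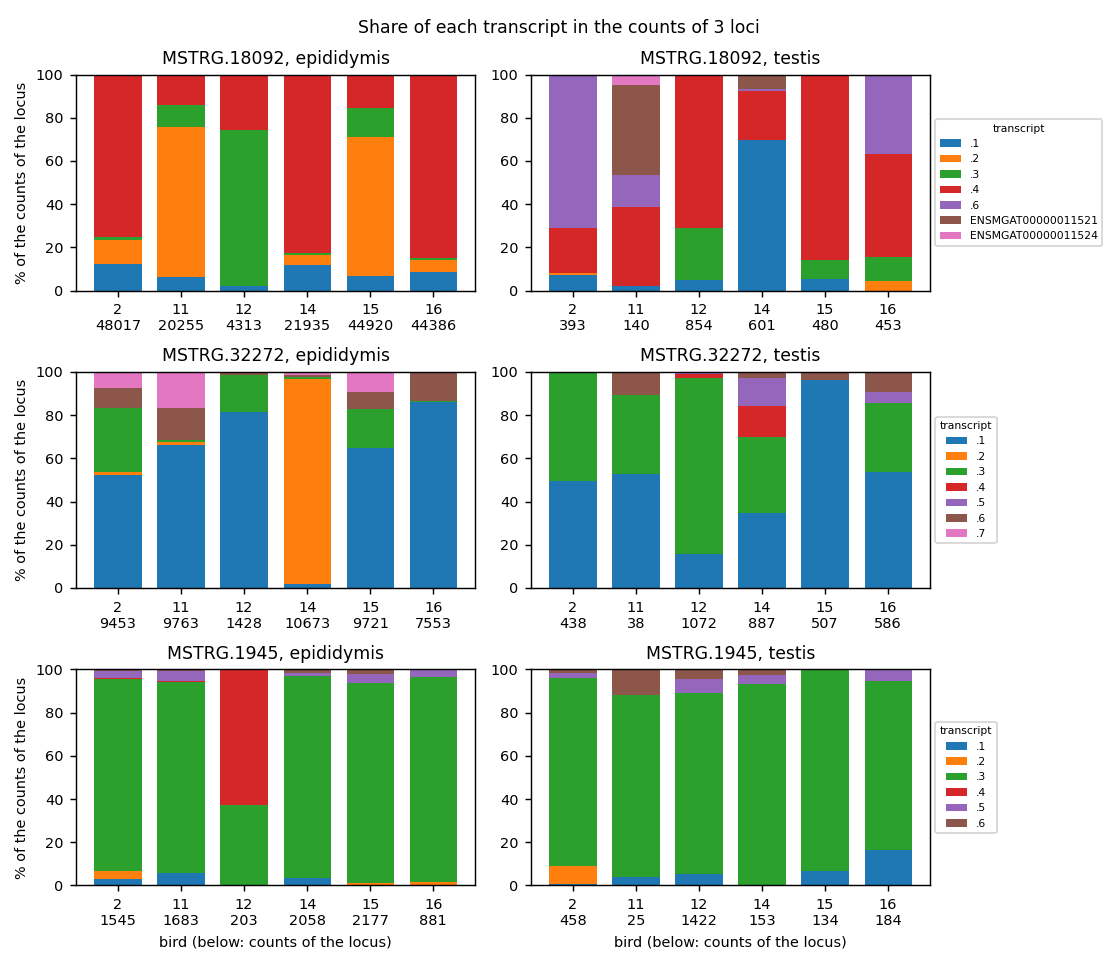
Share of each transcript in the counts of MSTRG.18092, MSTRG.32272 and MSTRG.1945 in each epididymis and testis, in percent, with the number of counts of the locus under the bird number. In the epididymis MSTRG.18092.4 leads in birds 2, 14 and 16 (75.003% to 84.8%), MSTRG.18092.2 in birds 11 and 15 and MSTRG.18092.3 in bird 12, whereas MSTRG.1945.3 leads in every library but the epididymis of bird 12.

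On transcript counts, 12 of the 25 transcripts passed the filter in “epididymis/testis”, where 3.49% of all transcripts tested were called higher in the epididymis. MSTRG.18092.4, MSTRG.1945.3 and MSTRG.32272.1 had all 6 testes above the level of the filter. The log2 fold change was 6.14 ± 0.97 for MSTRG.18092.4 (edgeR, adjusted p = 0.000670) and 4.02 ± 0.85 for MSTRG.32272.1 (edgeR, adjusted p = 0.00367), and both were called. That of MSTRG.1945.3 was 1.90 ± 0.87 (edgeR, adjusted p = 0.125). With the bird as a block none of the 3 was called, and the adjusted p of edgeR was 0.0163 for MSTRG.18092.4, 0.0461 for MSTRG.32272.1 and 0.186 for MSTRG.1945.3. MSTRG.32272.3, with 5 testes above that level, gave 1.59 ± 1.39 (edgeR, adjusted p = 0.432), beside the called difference of its locus.

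The rows numbered next to the loci were examined because the numbers follow the genome within chromosomes. Of 191 neighbouring pairs of listed loci on the same chromosome, 186 were in genome order. This does not cover MSTRG.47677, which starts at base 1 of an unplaced scaffold. Whether the rows numbered next to it lie near it is not known. The numbers -2 to 2 around the 6 loci gave 24 rows. In “epididymis/ductus deferens” 10 of them passed the filter, 2 were called higher in the epididymis and 0 lower, while 4.22% of all genes tested were called higher and 1.12% lower. MSTRG.18091, just before MSTRG.18092, had 6.58 ± 2.47 CPM in the epididymis (334 to 1002 counts), 0.0285 ± 0.0656 CPM in testes and 0 counts in all ductus deferentes (SD, n = 6 each). It was called against the ductus deferens and against the testis, where it had 0 to 26 counts and the log2 fold change was 7.47 ± 1.32. MSTRG.30167, just after MSTRG.30166, had 1.37 ± 1.18 CPM in the epididymis, 0.264 ± 0.246 CPM in testes and 0 counts in all ductus deferentes (SD, n = 6 each). It was called against the ductus deferens. In the pairs where they were called, both rows passed the filter through the epididymis alone, so no p is given for them. With the bird as a block neither was called against the ductus deferens. Without the epididymis of bird 12, 6 of 14 rows were called, where 7.57% of all genes tested were. Among them were MSTRG.18093, MSTRG.32271, MSTRG.1947 and MSTRG.30165, which had at most 6 counts in any ductus deferens. All 6 called rows thus passed the filter through the epididymis alone. Their number set beside that share is therefore no support for a difference around the loci. Whether these rows and the loci are parts of the same transcripts was not tested.

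Other rows next in number had other patterns. MSTRG.47678, next in number to MSTRG.47677 but not known to lie near it, had 38.24 ± 19.98 CPM in the epididymis, 35.1 ± 15.0 CPM in testes and 49.3 ± 19.9 CPM in ductus deferentes (SD, n = 6 each), with no call. MSTRG.32274 had 0 to 68 counts in the epididymis and 324 to 960 in the testis, with a log2 fold change of -5.10 ± 1.17. MSTRG.47679 was lower in the epididymis than in the testis by a log2 fold change of -3.87 ± 0.65 (edgeR, adjusted p = 0.000261). MSTRG.10846, beside MSTRG.10847, had 16.3 ± 4.15 CPM in the epididymis, 3.39 ± 2.02 CPM in testes and 24.1 ± 12.4 CPM in ductus deferentes (SD, n = 6 each). The gene that the study lists near MSTRG.1945.6, ENSMGAG00000011132, has the transcript ENSMGAT00000012497, whose counts equal those of the row MSTRG.1946 in all libraries. It had 0 to 265 counts in the epididymis, 0 to 14 in the testis and 0 to 91 in the ductus deferens. Its log2 fold change between epididymis and ductus deferens was 0.50 ± 1.08 (edgeR, adjusted p = 0.880). MSTRG.1945.6 itself held 96 of the 8547 epididymal counts of its locus.

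**Figure D4:**
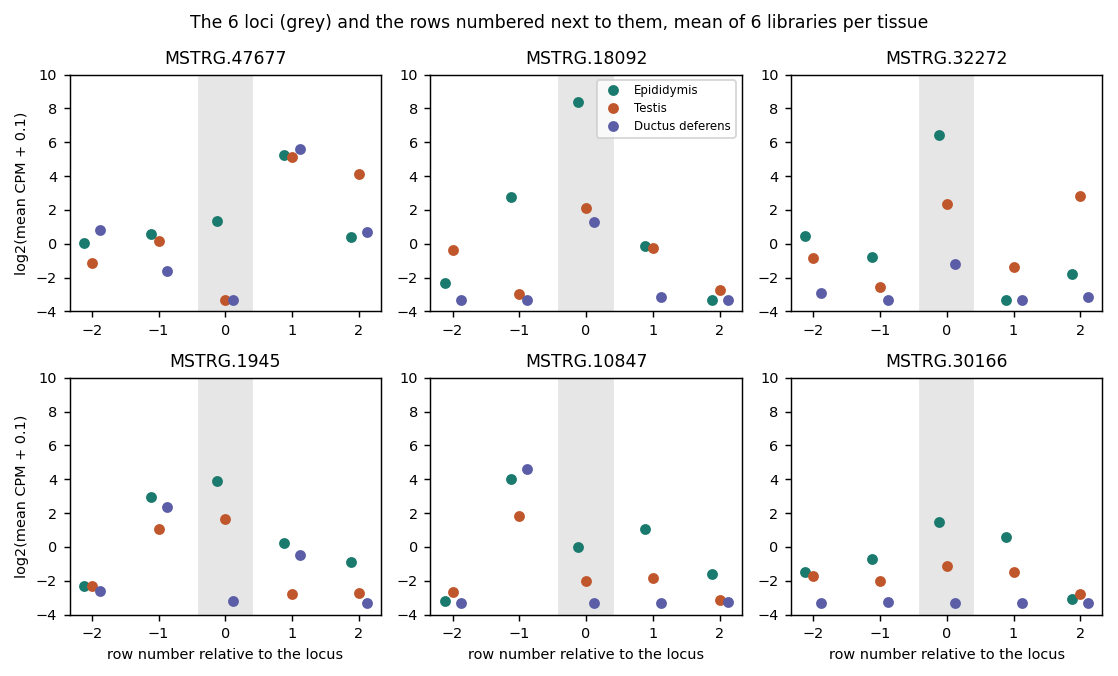
Mean level of each locus (grey band) and of the rows numbered -2 to 2 beside it, as log2(mean CPM + 0.1) over 6 libraries per tissue. Beside MSTRG.18092 the row -1 (6.58 CPM in the epididymis) has the same order of tissues as the locus, while the row numbered 1 after MSTRG.47677 lies at 35.1 to 49.3 CPM in every tissue. MSTRG.47677 lies on an unplaced scaffold, and whether the rows numbered next to it lie near it is not known.

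The rows most like each locus were found with Pearson's coefficient of log2(CPM + 0.1) over the 18 libraries, among the other 30707 rows that pass the filter over all libraries. The coefficients share the libraries, the depth and the difference between tissues, and are a description. MSTRG.47677 was most like MSTRG.20735 (0.996), MSTRG.4782 (0.995) and MSTRG.30994 (0.994), of which the first pair also had 0 counts in all testes and ductus deferentes. MSTRG.18092 was most like MSTRG.5036 (0.986), MSTRG.24562 (0.982) and MSTRG.45229 (0.979). MSTRG.32272 was most like MSTRG.24223 (0.981), MSTRG.1958 (0.981) and MSTRG.20873 (0.979). MSTRG.1945 was most like MSTRG.1956 (0.978), MSTRG.41084 (0.975) and MSTRG.1958 (0.973). MSTRG.1956 and MSTRG.1958 are 11 and 13 numbers after MSTRG.1945. MSTRG.1956 had 8.65 ± 3.45 CPM in the epididymis, 3.24 ± 1.90 CPM in testes and 0 counts in the ductus deferens (SD, n = 6 each). MSTRG.1958 had 80.9 ± 18.5 CPM in the epididymis, 4.36 ± 3.16 CPM in testes and 0 to 16 counts in the ductus deferens (SD, n = 6 each). MSTRG.10847 was most like MSTRG.24505 (0.951), MSTRG.32167 (0.936) and MSTRG.33698 (0.933), and MSTRG.30166 most like MSTRG.7002 (0.980), MSTRG.32524 (0.977) and MSTRG.45429 (0.972). Among the loci themselves the coefficients were 0.726 to 0.965, highest between MSTRG.18092 and MSTRG.47677.

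The symbols used here come from the study's relations between lncRNAs and genes that differ between these tissues. The rows with a symbol were thus chosen on these samples and are no neutral set of genes. Among the 83 rows past the filter that the study pairs with a symbol, LRP2, which encodes the endocytic receptor megalin, was the most like MSTRG.18092 (0.969) and MSTRG.32272 (0.960). CLGN, which encodes a chaperone of the endoplasmic reticulum, was the most like MSTRG.10847 (0.898). TMEM27, which encodes a membrane protein of epithelia, was the most like MSTRG.47677 (0.965). CDHR3, which encodes a cadherin-related protein, was the most like MSTRG.1945 (0.942) and MSTRG.30166 (0.906). The second in order were PLA2G12B for MSTRG.47677 (0.952) and MSTRG.18092 (0.957), CLGN for MSTRG.32272 (0.955) and MSTRG.1945 (0.942), LRP2 for MSTRG.10847 (0.886) and KL, which encodes klotho, for MSTRG.30166 (0.888). Among all 30707 rows the genes named here ranked from 13 (LRP2 with MSTRG.18092) to 110 (KL with MSTRG.30166).

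The loci were set beside genes in 2 lists that the study drew up on these samples, so that the direction of the lists is not independent evidence. Of 11 genes grouped by the study as differing between the epididymis and both other tissues, 8 could be matched. They include DNAH5, which encodes an axonemal dynein heavy chain and is also among the markers of multiciliated cells used above. With edgeR, all 8 were called higher in the epididymis in both pairs of tissues. Their median log2 fold change was 4.64 in “epididymis/testis” and 5.11 in “epididymis/ductus deferens”, against -0.30 and 0.05 over all genes tested. LRP2 had 418 ± 100.1 CPM in the epididymis, 8.99 ± 5.82 CPM in testes and 1.83 ± 1.69 CPM in ductus deferentes, and HNF4A, a transcription factor of absorptive epithelia, had 129 ± 88.0, 2.90 ± 1.53 and 0.397 ± 0.297 CPM in the same order of tissues (SD, n = 6 each). In “testis/ductus deferens” 3 of the 8 were called higher in the testis and 1, RDH10, which encodes a retinol dehydrogenase, lower, where 30.4% of all genes tested were called higher and 14.9% lower. With the bird as a block these numbers were 2 and 1.

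Of 14 genes grouped by the study as differing between the ductus deferens and both other tissues, 10 could be matched. Most are genes of the cilium, the axoneme and the centriole, so this is called the ciliary list here. It also holds NDC80, which encodes a component of the kinetochore. All 10 were called higher in the epididymis, and likewise in the testis, against the ductus deferens, while with the bird as a block 7 were called in the epididymis. Of all genes tested, 4.22% were called higher in the epididymis and 30.4% in the testis, both without the block, for which no share is given. In “epididymis/testis” 1 was called higher in the epididymis and 5 lower, where 23.0% of all genes tested were lower, and with the bird as a block 1 was higher and 1 lower. NDC80 was among the 5 called lower. The median log2 fold change of the 10 genes was -1.08 in “epididymis/testis” and 5.37 in “testis/ductus deferens”, against -0.30 and 0.59 over all genes tested. ARMC4, which encodes a protein needed to dock dynein arms on the axoneme, had 78.2 ± 26.4 CPM in the epididymis, 53.8 ± 33.9 CPM in testes and 0.258 ± 0.226 CPM in ductus deferentes (SD, n = 6 each). In the ciliary list the epididymis of bird 12 was the lowest epididymis for 8 of 10 genes and its testis the highest testis for 7 of 10, and in the epididymal list these numbers were 6 of 8 and 1 of 8.

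**Figure D5:**
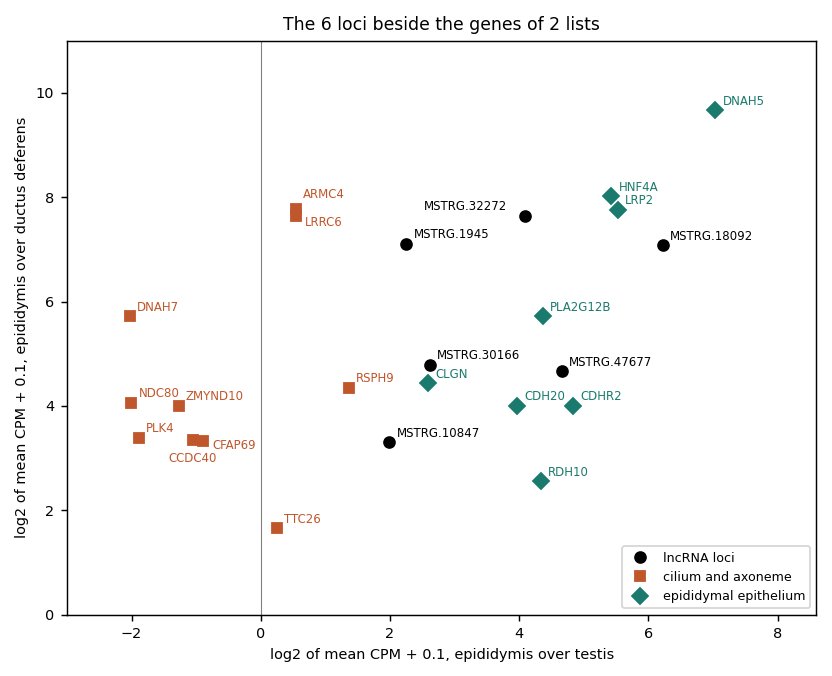
Log2 ratio of mean CPM + 0.1 of epididymis over testis (x axis) and of epididymis over ductus deferens (y axis) for the 6 loci and the matched genes of both lists; the axes share the epididymis libraries. On the x axis the loci lie from 1.99 (MSTRG.10847) and 2.25 (MSTRG.1945) to 6.22, the epididymal genes from 2.59 to 7.03 and the genes of the ciliary list, NDC80 included, from -2.03 to 1.36. The value of 7.03 is that of DNAH5, an axonemal dynein gene that the study groups with the epididymal genes.

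The study's list of lncRNAs higher in the epididymis than in the ductus deferens holds 19 other loci. Since the 6 were picked from the list with its values known, the comparison is a description. Among the others is MSTRG.34831, the row that the study also pairs with the symbol CLGN, used above. The ductus deferens held 0 to 0.707% of the epididymal mean at the 6 loci (median 0.0324%) and 0 to 33.7% at the other 19 (median 6.79%), of which 3 lay within the range of the 6. No overlap between epididymis and ductus deferens was seen at 5 of the 6 loci, all but MSTRG.30166, and at 6.01% of all genes tested. All 6 ductus deferentes had at most 3 counts at 4 of the 6 loci and at 1 of the other 19, MSTRG.8143. The testis held 0 to 20.5% of the epididymal mean at the 6 loci (median 9.49%) and 2.41% to 2393% at the other 19 (median 65.7%), of which 5 lay within the range of the 6 and 9 had a testis mean above that of the epididymis. All 6 testes had counts at 3 of the 6 loci and at all of the other 19.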

How the data were processed

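RNA-seq counts of 6 turkeys were used, with the epididymis, the testis and the ductus deferens of each bird as separate libraries. Before deposit, reads were cut to 90 nt (Trimmomatic 0.38), aligned by the authors to version 2.01 of the turkey genome (STAR 2.4) and assembled into transcripts that were merged over all samples (StringTie 1.3.3). They deposited raw counts per gene and per transcript, not normalised. The counting tool and its use of strand are not given in the sources used here, so counts of overlapping loci are uncertain. Every column was matched to a sample by its title.

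Each pair of tissues was fitted on its 12 libraries, over all genes that passed filterByExpr, with edgeR 4.0.16 in R 4.3.3 (TMM, robust quasi-likelihood test, Benjamini-Hochberg adjustment), and called where the adjusted p was below 0.01 and the log2 fold change beyond 1. The standard error is the absolute log2 fold change divided by the square root of F. Pairwise fits follow the study, which used other tools. No p is given for the loci where the ductus deferens enters. Nor is one given for loci or neighbours that passed the filter through the epididymis alone, although the fits were made. Values without the testis of bird 12 were added after the data were seen. Birds are named by the shared number in the labels, so tissues are paired. Deviations from the tissue means correlated by 0.0148 (epididymis and testis), 0.0738 (epididymis and ductus deferens) and 0.00115 (testis and ductus deferens) on average within birds. A fold against a tissue with at most 3 counts in each library is a lower bound against the highest CPM that 3 counts reach in its libraries. Bounds cover counting error only. Transcript shares were compared with exact permutation tests (scipy 1.17.1) in libraries with at least 20 counts on the locus. They ignore the pairing, and 6 against 6 libraries allow no p under 0.00216. Alternatives were DESeq2 1.42.0, scaling by library size or by the upper quartile, no filter, 1 fit over 3 tissues, the bird as a block, fits without each bird or without the epididymis of bird 12, a limit of 0.05 on the adjusted p, and for the shares a minimum of 5 or 50 counts or the transcript leading in the epididymis. Steps were tested on simulated data.

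The loci, the gene lists and the markers were chosen with earlier results of these data known. Named rows are the 6 loci and their transcripts, per locus the 3 rows and the 2 rows with a symbol most like it, genes of both lists, the gene listed near a locus and neighbours in number past the threshold; other neighbours and MSTRG.8143 were chosen after their values were seen, as were the transcript fits. Symbols come from ID pairs in the study's supplementary tables. Columns of the authors' own comparisons were not used.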

Additional observations from a re-analysis of the deposited data

Results flagged for a closer look

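In 19 groups of 4 to 6 libraries, 4 values lay far from the rest of their group by Dixon's test, which chance does in about 1 in 20 groups. The epididymis of bird 12 had 32.2 CPM of MSTRG.32272, against 89.3 to 111 CPM in the other epididymides. In the same library MSTRG.1945.3 held 37.4% of the counts of its locus, against 88.4% to 95.0%. The testis of bird 12 had 0.630 CPM of MSTRG.10847, against 0 to 0.184 CPM in the other testes. The testis of bird 11 had 2.04 CPM of MSTRG.18092, against 4.12 to 5.33 CPM.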

How the results depend on the processing

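Counted over all 6 loci, those past the threshold in “epididymis/testis” were 3, where 12.9% of all genes tested were called higher. Without bird 12 they were 6, where this share was 16.1%. They were 5 at an adjusted p under 0.05 and 3 to 6 over the birds left out in turn. For the limit of 0.05 and the other birds no share of all genes is given. The epididymis was used to choose the loci, and MSTRG.47677 and MSTRG.10847 passed the filter through it alone. These counts are thus no support for a difference between epididymis and testis. In “testis/ductus deferens” 2 were past the threshold, where 30.4% of all genes tested were called higher in the testis. There were 4 in 1 fit over 3 tissues, for which no share of all genes is given, and 2 to 3 over the birds left out. The ductus deferens was used to choose the loci, so these numbers give no test of the loci. They are no support for a difference and describe the processing alone. The pair added in the fit over 3 tissues was MSTRG.10847 and MSTRG.30166. Neither locus passed the filter on the testis and the ductus deferens with all 6 birds, so their fits are no support for a difference. Without bird 2, 4 loci passed this filter and 3 were past the threshold. The 2 neighbours called were 0 with the bird as a block and 6 without the epididymis of bird 12. All of these rows passed the filter through the epididymis alone, so their calls are no support for a difference. The 6 genes of the ciliary list called in “epididymis/testis” were 2 with the bird as a block. No share of all genes is given for any fit with the bird as a block. Fewer calls there can thus not be set beside those of all genes. The block changed no call of MSTRG.18092, MSTRG.32272, MSTRG.1945 or MSTRG.30166 in “epididymis/testis”. The fitted log2 fold change between epididymis and ductus deferens was 10.67 for MSTRG.47677 and 9.97 with DESeq2, and 9.23 for MSTRG.10847 and 8.51 with DESeq2. With birds left out it was 10.56 to 10.73 for MSTRG.47677, 9.76 to 11.29 for MSTRG.1945, 8.97 to 9.43 for MSTRG.10847, 6.82 to 7.34 for MSTRG.18092 and 7.79 to 8.05 for MSTRG.32272. At MSTRG.47677, MSTRG.10847 and MSTRG.1945 no ductus deferens had over 3 counts, so the size of these fitted values is not resolved by the counts. For them only the bounds of at least 42.1-fold, 15.4-fold and 261-fold, in the same order, hold. Under the filter on that pair of tissues MSTRG.30166 passed with bird 12 or its epididymis left out, and in no other fit of the pair. The share of the leading transcript differed by 5.08 percentage points at MSTRG.1945 without the epididymis of bird 12, and with birds left out by -9.48 to 16.6 at MSTRG.18092, -3.12 to 16.6 at MSTRG.32272 and -8.11 to 4.52 at MSTRG.1945. The cause of these changes was not tested. Below 20 counts shares, and below 3 counts per library levels, are not resolved at this depth.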
